A study of Mus musculus with 36 samples.

Results

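The measurements described here are the DNA methylation levels of 641 methylated intergenic CpG clusters, out of 18009 CpG clusters in the series. A cluster is a run of at least 20 listed positions at most 100 bp apart, and its level is the mean over its positions with a value in all 36 samples. The 641 were chosen by position and by measured level: they lie on autosomes, overlap no gene of the GENCODE M21 annotation of GRCm38, lie over 1 kb from every annotated transcription start, and have a mean level over 80% in the 18 Control samples. Of 16391 autosomal clusters with a value in every sample, 920 met the conditions on position. Besides the 641 with a Control mean over 80%, 109 of the 920 were between 20% and 80% and 170 were under 20%. The high Control level of the members is therefore the selection itself and not a result.

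DNA methylation at CG dinucleotides is set and kept by DNA methyltransferases, and most CG dinucleotides of the mouse genome outside CpG islands carry it. Much intergenic DNA derives from transposable elements and other repeats, whose CG dinucleotides are usually methylated in somatic cells. CpG clusters away from genes that lack methylation often lie in promoters not yet annotated or in enhancers, whereas the methylated ones are usually regarded as inactive DNA. Reduced representation bisulfite sequencing (RRBS) reads DNA next to the cut sites of the enzyme MspI, whose site is CCGG, so it measures CG-rich DNA and covers little of the CG-poor intergenic genome.

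The study followed the mouse pre-B cell line B3 after induction of Ikaros, a zinc finger protein that drives pre-B cells to stop dividing and differentiate. Ikaros cells had been transduced with an MSCV vector (HA-Ikaros-ERt2-IRES-GFP) that expresses GFP and a tagged Ikaros whose ERt2 part binds tamoxifen. Control cells carried the control vector, which per the study's methods holds ERt2, IRES and GFP without Ikaros. Each series was sampled at 0, 2, 6, 12, 18 and 24 h, with 3 replicates per time point, which gives 18 Ikaros and 18 Control samples. The 4-hydroxy-tamoxifen (4-OHT) that moves the fusion protein into the nucleus was used at 0.5 µM in both series, and the labels list it for 0 h as well, whereas the methods of the study add it only to the induced time points. Both series are transduced populations of a single cell line, so replicates measure the spread between cultures of that line. Differences between the series at all time points, 0 h included, cannot be told apart from differences between the transduced populations.

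The clusters that carry the results below are shown first as reference sequence of the GRCm38 RefSeq FASTA, forward strand, 5′ to 3′, with each CG in capitals. The Gfra2 cluster (chr14:70888640-70888884) had the smallest p of the members lower in Ikaros, and the Pde4a cluster (chr9:21164251-21164349) the smallest of those higher in Ikaros. The stretch of the Rpp25 cluster (chr9:57501813-57502112) comes from the member with the lowest mean level in the Ikaros series. Clusters are called by the protein-coding gene with the nearest start, which is a statement of position only.
Gfra2 cluster: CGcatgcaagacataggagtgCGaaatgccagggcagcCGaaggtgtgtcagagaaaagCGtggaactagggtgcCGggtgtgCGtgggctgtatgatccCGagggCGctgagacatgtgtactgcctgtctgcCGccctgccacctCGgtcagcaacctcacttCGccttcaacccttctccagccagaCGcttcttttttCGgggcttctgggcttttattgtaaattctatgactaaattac
Pde4a cluster: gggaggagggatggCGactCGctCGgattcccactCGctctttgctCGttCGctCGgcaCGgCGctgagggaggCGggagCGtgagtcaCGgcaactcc
Rpp25 cluster: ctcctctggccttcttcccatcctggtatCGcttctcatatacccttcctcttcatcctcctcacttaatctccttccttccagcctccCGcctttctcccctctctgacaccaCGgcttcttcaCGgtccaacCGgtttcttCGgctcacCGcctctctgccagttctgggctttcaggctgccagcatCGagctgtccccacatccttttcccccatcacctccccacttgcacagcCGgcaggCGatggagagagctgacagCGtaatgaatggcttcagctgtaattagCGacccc

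The next sequences show ordinary members and the densest one. The clusters 70.7 kb from 1700001O22Rik (chr2:30725733-30725932) and at Hoxc12 (chr15:102935067-102935179) had the Control means nearest the median of the members. The middle of the cluster with the most listed positions (chr9:32032377-32032676, 83.1 kb from Arhgap32) held 57 CG in 300 bases and resembles a CpG island in its density.
1700001O22Rik cluster: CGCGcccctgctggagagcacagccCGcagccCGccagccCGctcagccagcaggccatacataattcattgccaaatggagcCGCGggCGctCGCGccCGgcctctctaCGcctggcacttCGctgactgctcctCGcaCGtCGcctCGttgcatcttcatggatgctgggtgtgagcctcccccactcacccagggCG
Hoxc12 cluster: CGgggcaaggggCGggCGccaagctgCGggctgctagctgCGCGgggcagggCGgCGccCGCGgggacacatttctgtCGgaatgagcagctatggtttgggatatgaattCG
Arhgap32 cluster: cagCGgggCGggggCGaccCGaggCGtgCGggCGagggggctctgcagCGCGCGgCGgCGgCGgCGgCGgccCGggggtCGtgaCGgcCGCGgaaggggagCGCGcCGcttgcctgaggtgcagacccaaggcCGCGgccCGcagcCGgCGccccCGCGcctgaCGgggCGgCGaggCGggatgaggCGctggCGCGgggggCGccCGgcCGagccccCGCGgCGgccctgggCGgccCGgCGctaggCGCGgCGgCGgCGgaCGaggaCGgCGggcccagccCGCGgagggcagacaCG

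The last sequences come from members that share sequence with other members, described below as families. Family 1 is shown by the clusters at chr10:29243370-29243660 and chr4:10478167-10478330, family 2 by chr1:31492297-31492596 and family 3 by chr1:7271712-7272011. The Unc5c cluster (chr3:141378744-141379034), also of family 2, was the one member called for a change over time.
Family 1, chromosome 10: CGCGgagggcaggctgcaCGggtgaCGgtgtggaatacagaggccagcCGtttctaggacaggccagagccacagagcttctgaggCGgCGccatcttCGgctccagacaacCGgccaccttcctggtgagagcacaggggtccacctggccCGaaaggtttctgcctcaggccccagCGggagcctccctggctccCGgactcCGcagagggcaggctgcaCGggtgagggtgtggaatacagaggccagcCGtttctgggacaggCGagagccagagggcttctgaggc
Family 1, chromosome 4: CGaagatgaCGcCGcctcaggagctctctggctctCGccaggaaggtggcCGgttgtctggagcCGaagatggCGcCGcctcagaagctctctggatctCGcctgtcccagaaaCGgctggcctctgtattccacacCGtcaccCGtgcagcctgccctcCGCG
Family 2: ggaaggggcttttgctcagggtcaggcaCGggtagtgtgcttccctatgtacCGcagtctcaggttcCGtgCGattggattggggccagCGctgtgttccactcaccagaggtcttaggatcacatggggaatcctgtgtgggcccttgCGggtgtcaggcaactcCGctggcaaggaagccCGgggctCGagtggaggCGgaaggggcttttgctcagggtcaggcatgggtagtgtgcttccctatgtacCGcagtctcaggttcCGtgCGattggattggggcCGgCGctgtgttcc
Family 3: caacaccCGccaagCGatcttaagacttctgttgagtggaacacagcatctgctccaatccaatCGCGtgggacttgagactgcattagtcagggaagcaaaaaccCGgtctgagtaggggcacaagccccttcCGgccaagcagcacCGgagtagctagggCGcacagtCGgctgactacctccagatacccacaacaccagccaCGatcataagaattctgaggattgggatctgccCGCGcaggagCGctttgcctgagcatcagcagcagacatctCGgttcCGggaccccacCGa
Unc5c cluster, family 2: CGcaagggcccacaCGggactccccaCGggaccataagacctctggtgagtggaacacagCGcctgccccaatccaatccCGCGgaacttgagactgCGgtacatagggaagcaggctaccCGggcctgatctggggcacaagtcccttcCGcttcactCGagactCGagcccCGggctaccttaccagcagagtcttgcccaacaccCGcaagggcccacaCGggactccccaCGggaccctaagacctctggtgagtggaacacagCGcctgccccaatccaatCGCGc

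A typical member was short and almost fully methylated. The median member held 27 listed positions, 21 of them with a value in every sample, over 303 bp, and both strands of a CG are listed separately. Its Control mean was 94.8%, with the middle of the members between 91.4% and 96.8% (quartiles) and the highest at 98.7%. Of the 641 members, 524 (81.7%) were over 90% and 308 (48.0%) over 95% in Control. In the Ikaros series, which the selection did not use, the median was 94.998%, 531 members (82.8%) were over 90%, and 3 were under 80%. These were the Rpp25 cluster at 78.3%, a cluster 107 kb from Tbx3, a T-box factor gene, at 79.6%, and a repeat-masked cluster 109 kb from Usp38 at 79.7%. The next lowest, a masked cluster 223 kb from Kctd16, was at 80.1%. The Ikaros libraries therefore held the same clusters at a high level, with few exceptions.

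The members closest to the selection threshold were as follows. Just inside it were the Fam167b cluster with a Control mean of 80.2%, the Gzmd cluster with 80.5% and a cluster 56.7 kb from Lyzl1 with 80.5%. Just outside were the Colec12 cluster with 79.3%, a cluster 6.58 kb from Pou3f2 with 79.1% and the 2700062C07Rik cluster with 79.0%. Their SDs over the 18 Control samples ran from 2.90 to 5.74 points, which is more than their distance from the threshold.

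**Figure D1:**
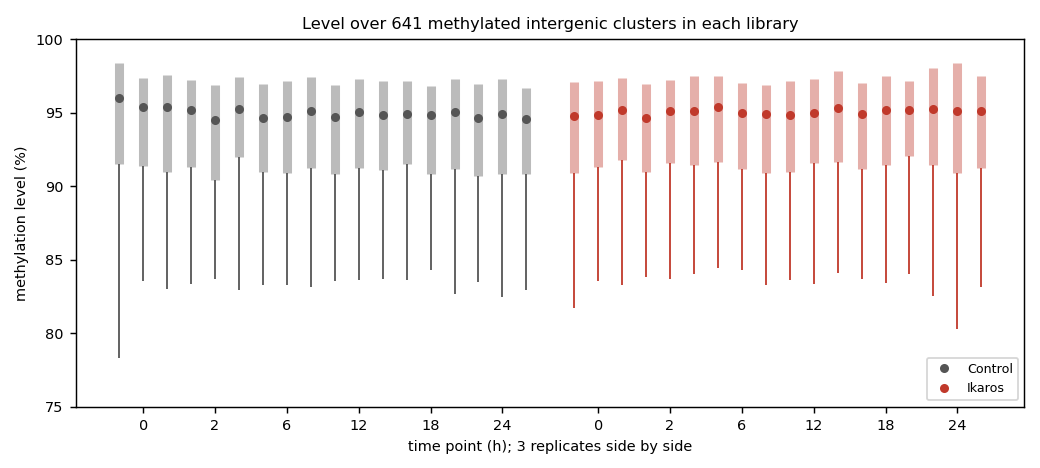
Methylation level (%) over the 641 members in each of the 36 libraries, by time point (h), with 3 replicates side by side and Control in grey and Ikaros in red. Points are medians, thick bars run from the lower to the upper quartile, and thin lines reach down to the 5th percentile. The medians sit between 94.5% and 96.0%, and the lowest 5th percentiles, at 78.3% and 80.3%, are those of Control 0 h replicate 1 and Ikaros 24 h replicate 2.

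The level of the members as a whole was nearly the same in every library, as the plot of levels by library shows. The median over members ran from 94.5% to 96.0% in the 18 Control libraries and from 94.7% to 95.4% in the 18 Ikaros libraries, and the ranges overlap. Averaged over the 3 replicates, the mean over members was 93.6% ± 0.108 (SD, n = 3) in Control at 0 h and 93.2% ± 0.156 at 24 h, against 93.5% ± 0.293 and 93.7% ± 0.198 in Ikaros. The number of members under 80% in a library had a median of 12 in each series. It was highest in Control 0 h replicate 1, with 42, and next in Ikaros 24 h replicate 2, with 31. These were libraries with sparse or extreme values: 17.0% of the values at the members' positions were empty in the first, and 33.0% were exactly 100% in the second, against medians of 0.439% empty in Control and 9.88% at 100% in Ikaros. Whether these shares have a part in the low clusters of these libraries was not tested.

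Within a cluster the level was usually even. In the Ikaros means, the highest and the lowest position of a member differed by a median of 5.37 points, and every position was over 80% in 509 members (79.4%). The median was 96.2% at positions within 20 bp of a cluster's end, 96.9% at positions over 150 and up to 300 bp from it, and 97.4% at positions over 300 bp from it, which come from 43 members. A position under 50% occurred in 13 members and one under 20% in 3. The clearest dip lay in a member 7697 bp from a start of Igfbp2, an insulin-like growth factor binding protein gene (chromosome 1, 72856396 to 72856732). There the level fell to 5.19% in Ikaros and 7.55% in Control at an inner position and reached 92.2% and 90.01% elsewhere. This dip was 1 position, the only one of the 15 complete positions under 50% in Ikaros. In the Fam167b cluster (chromosome 4, 129584921 to 129585609) the lowest position was at 12.3% in Ikaros and 12.0% in Control, 200 bp from the nearer end, and the highest was at 96.9% and 93.4%. Of its 51 complete positions, 3 were under 50% in Ikaros. Both series held these dips at the same places. The deposited levels were smoothed along each cluster, so neighbouring positions are not independent and the edges of a dip are blurred.

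The members lay at a distance from annotated starts like that of the partly methylated intergenic clusters, and many lay in repeats. The median distance to the nearest start of any annotated transcript was 11777 bp, with 163 members within 5 kb and 40 over 100 kb away. The 170 unmethylated intergenic clusters lay closer, at a median of 5484 bp with 80 within 5 kb and 0 over 100 kb. The members held 6.00 CpG per 100 bp of window and 62.3% GC (medians), against 8.33 and 65.3% in the unmethylated clusters, and their ratio of observed to expected CG was 0.679 against 0.806. Over all autosomal clusters these medians were 9.33, 67.7% and 0.834, so the members were among the clusters less dense in CG. The 384 methylated intronic clusters, which touch no exon and also lie over 1 kb from every start, had 6.00 CpG per 100 bp, 61.8% GC and a ratio of 0.692, close to the members. Their median distance to a start was 6238 bp, with 172 within 5 kb, which is closer to that of the unmethylated clusters. The 109 partly methylated intergenic clusters lay at a median of 12459 bp, with 31 within 5 kb. They held 6.33 CpG per 100 bp and 63.0% GC, with a ratio of 0.650, also close to the members. These are descriptions of windows of 300 bp centred on each cluster, with no test.

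The reference marks repeats in lower case (soft-masking), and by that mark the members fell into separate kinds. In 233 members no base was masked and in 417 under 20% was, while in 181 over 80% was masked. Between these limits lay 43 members. In all, 207 of 641 members (32.3%) were masked over more than 50% of their length. Among the methylated intronic clusters the share was 61 of 384 (15.9%), and among the unmethylated intergenic clusters it was 0 of 170, as the plot of masked shares shows. Among the partly methylated intergenic clusters, which are not in the plot, it was 21 of 109 (19.3%). Over all autosomal clusters, most of which lie at gene starts, it was 2.00%.

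**Figure D2:**
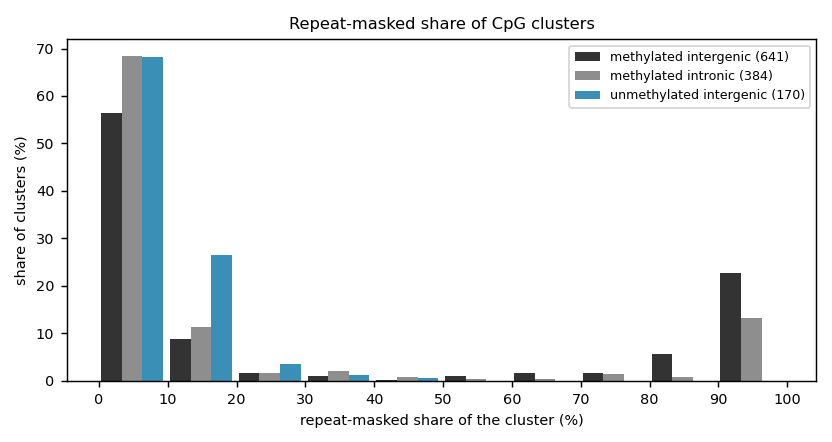
Share of clusters (%) by the repeat-masked share of the cluster (%) in steps of 10 percentage points, for the 641 members, 384 methylated intronic clusters and 170 unmethylated intergenic clusters. The members have peaks at both ends, with 56.3% of them masked under 10% and 22.6% masked over 90%. The intronic clusters also have both peaks, with 68.5% and 13.3%, and the unmethylated intergenic clusters reach no further than 50%.

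The masked members lay further from genes and varied more between samples than the others. Their median distance to a start was 28022 bp against 8355 bp in the 434 members masked at most 50%, and 35 of the 40 members over 100 kb from a start were masked ones. The median Control mean was 93.7% in the masked members and 95.2% in the others, and the median Ikaros mean 93.5% and 95.6%. The SD over the 18 Ikaros samples had a median of 2.97 points in the masked and 1.99 points in the other members, and 27 of 207 (13.0%) against 24 of 434 (5.53%) had an SD over 5 points. The masked members also had fewer complete positions, with a median of 16 against 25.5, and more of their listed positions had an empty value, with medians of 30.8% and 14.2%. The part of these in the spread was not tested.

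Many of the masked members are copies of one another. Windows of 300 bp were aligned with each other, and members were linked where they shared at least 80% identity over at least 50% of a window. This placed 203 members (31.7%) in 14 families and left 438 unlinked. Of the 203, 192 were masked over more than 50%. The largest family held 104 members on 19 chromosomes, the second 34 on 16 and the third 20 on 12, while the other 11 families held from 2 to 8. Under a stricter link, 90% identity over 80% of the window, 131 members were linked and the largest family held 38. The clusters of family 1 shown above shared 91.7% identity over 157 aligned bases. The reference used here gives no repeat class, so the families are described by sequence alone.

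Most members of families 1 and 2 held repeated runs within a window, and the 3 largest families had copies across the genome. An exact run of at least 20 bases occurred more than once within the window of 76 of the 104 members of family 1 and 29 of the 34 of family 2, with a median offset of 203 and 199 bases. In family 3 it occurred in 4 of 20. Such runs were found in 5 of the 434 members masked at most 50%. The printed Unc5c sequence shows this, since a run of 45 bases recurs 208 bases further on in its window. In the assembled chromosomes, windows of family 1 had a median of 167 matches at 90% identity or more over at least 80% of the window, family 2 a median of 1290 and at most 8156, and family 3 a median of 62.5. Reads from such copies can be hard to place, and how the aligner treated them at these sites is not shown in the files. The level of a member in a family may therefore include reads of other copies.

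All families were highly methylated, with median Ikaros means from 90.2% in family 11 to 97.0% in family 10. The median Ikaros mean was 92.2% in family 1, 91.2% in family 2 and 94.6% in family 3, and the lowest members were at 80.1%, 80.7% and 85.4%. The spread of families 1 to 3 over the Ikaros samples, with median SDs of 3.13, 3.72 and 3.21 points, was above the median of 2.01 in the 438 members in no family. In the smaller families the median SDs lay on both sides of it, from 1.12 points in family 9 to 3.83 points in family 6. Matches at 95% identity or more in over 1 place were found for 96 of the 207 masked members and 13 of the other 434, so part of the masked members are near-identical to other places.

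**Figure D3:**
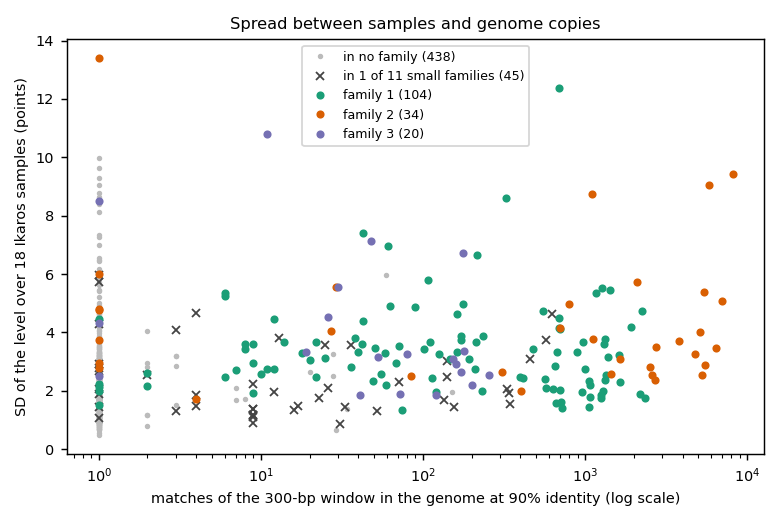
SD of the level over the 18 Ikaros samples (percentage points) against the number of matches of the 300-bp window in the genome at 90% identity or more (log axis), 1 point per member, coloured by family. Members in no family gather at 1 match with a median SD of 2.01 points, and families 1 to 3 spread from 1 to 8156 matches with median SDs of 3.13, 3.72 and 3.21 points.

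The members that varied most and least show both kinds. The largest SD over the Ikaros samples, 13.4 points, was that of a member 599 kb from Tns3 in family 2, whose Ikaros levels had a lowest value of 46.3%, a median of 86.5% and a highest value of 100%. Next was a member of family 1, 84.4 kb from Cst10, with a lowest value of 44.5%, a median of 96.3% and an SD of 12.4 points. In this cluster 1 Ikaros library, 18 h replicate 2, carried the spread, and the Control values ran from 89.8% to 100%. The Cts3 cluster of family 3 (SD 10.8 points) rested on 2 complete positions and an unmasked cluster 25.6 kb from Gm6685 (SD 9.99 points) on 3, so these spreads come from very few positions. The smallest SDs were 0.495 points in the Arhgap32 cluster, which is also the member with the most positions (230 listed, 168 complete), 0.56 points in the Mnx1 cluster, 0.64 points in the Rfx4 cluster and 0.66 points in a cluster 361 kb from Ywhaq. Mnx1 encodes a homeobox factor of motor neurons and Rfx4 a factor of the developing brain. These steady clusters were unmasked over most of their length and had from 60 to 168 complete positions, although the window of the last had 29 matches in the genome.

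The 4 members with the most listed positions were methylated at over 96% in both series. After the Arhgap32 cluster, with 98.1% ± 0.73 in Control and 98.3% ± 0.49 in Ikaros (SD, n = 18 each), came the Pax3 cluster, with 217 positions 19.5 kb from the gene of a homeobox factor of neural crest and muscle. Its levels were 97.8% ± 1.07 and 97.9% ± 0.76. The 1520401A03Rik cluster, with 145 positions, had 96.3% ± 1.23 and 96.4% ± 1.05. The Kif26a cluster, with 141 positions near a kinesin family gene, had 97.8% ± 0.86 and 97.8% ± 1.39. None of these 4 passed the test between the series.

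The comparison of the series asked whether the clusters that are methylated in Control differ in cells that carry the inducible Ikaros. The difference was fitted across all 16734 clusters with limma on M-values, the log2 ratio of methylated to unmethylated level, with the time point as a factor, and a cluster was called at an adjusted p under 0.05 (Benjamini-Hochberg). Of the 641 members, 31 (4.84%) were called, against 4.84% of all clusters tested, so the share among the members was that of the background. In 21 members (3.28%) the level was higher in Ikaros, against a background of 3.71%, and in 10 (1.56%) it was lower, against 1.13%. Because membership was set on the Control level, the split of directions is not free of the selection and is given as a description only. Where members were chosen on the Ikaros samples instead, 35 of 649 (5.39%) were called, 26 higher (4.01%) and 9 lower (1.39%), beside the same backgrounds. The number of members called was 10 (1.56%) without replicate 3, 19 (2.96%) without replicate 1 and 10 (1.56%) with each library's share of empty and of extreme values as covariates, and the share of all clusters called moved with it, to 2.20%, 2.38% and 2.00%.

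The differences were small for most members. The median difference, Ikaros minus Control, was 0.0732 points, and the quartiles were -0.566 and 0.934 points. Over all clusters tested the median was 0.0359 points, and over the members without Control 24 h replicate 2 it was 0.0317 points. In 403 members (62.9%) the series differed by less than 1 point. Differences over 5 points occurred in 9 members, 3 higher and 6 lower in Ikaros, and 6 of the 9 were called. The 308 members over 95% in Control could not be over 5 points higher, so this split is set in part by the selection. No share of all clusters over 5 points is given beside these counts. The 31 called members had a median difference of 3.20 points in size, from 0.993 to 12.7 points. In every one of the 31 the values of the 18 Ikaros and 18 Control samples overlapped. The plot of series means shows the called members on both sides of the line of equal levels.

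**Figure D4:**
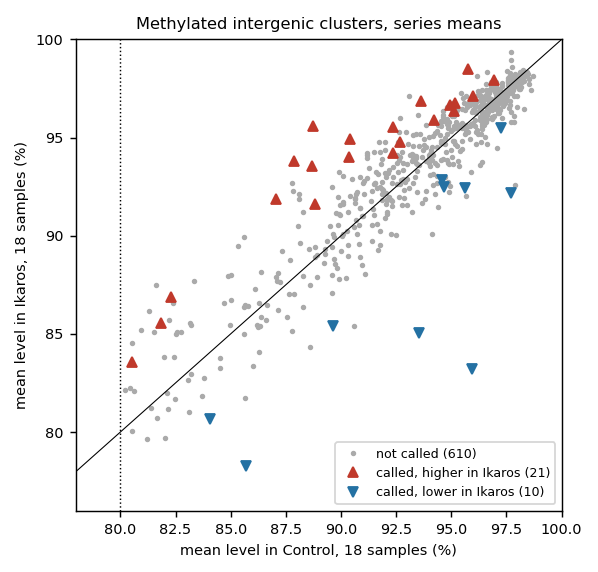
Mean level (%) of each member over the 18 Control samples against that over the 18 Ikaros samples, with a line of equal levels and a dotted line at the selection threshold of 80%. Of the 641 points, 21 triangles up mark members called higher in Ikaros and 10 triangles down members called lower, and the lowest of these are the Rpp25 cluster at 78.3% and a cluster at 80.7% in Ikaros.

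The largest difference was in the Gfra2 cluster, 1.24 kb from a start of the gene of a GDNF family receptor (chromosome 14, 70888640 to 70888884, 23 positions of which 14 were complete). In Control the lowest value was 76.3%, the median 97.1% and the highest 99.1%, and in Ikaros these were 67.6%, 83.0% and 94.7%. The Control libraries were all over 94% but for 1, replicate 2 at 24 h. The Ikaros libraries spread widely, and the highest of them, at 94.7% and 94.5%, overlapped the lowest of these Control libraries. The mean fell from 95.9% ± 5.11 to 83.2% ± 7.28 (SD, n = 18 each), a log2 difference in M-values of -2.59 ± 0.30 (SE) with an adjusted p of 4.93e-07 in limma. The difference was there at 0 h, with Control values of 98.5%, 95.8% and 97.0% and Ikaros values of 82.7%, 89.8% and 94.7%. At 12 h the Ikaros values of 74.7%, 81.5% and 80.035% were all below the Control values of 94.3%, 99.0% and 98.8%.

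The Rpp25 cluster, 1.84 kb from the gene of a subunit of ribonuclease P (chromosome 9, 57501742 to 57502184, 31 positions of which 26 were complete), had the second smallest p of the members lower in Ikaros. Its lowest, median and highest values were 74.8%, 86.4% and 89.2% in Control and 74.3%, 78.2% and 85.3% in Ikaros. Of the 18 Control values, 14 lay above the highest Ikaros value, and 16 of the 18 Ikaros values lay inside the Control range, whose lowest value is that of Control 24 h replicate 2. The means were 85.7% ± 3.07 and 78.3% ± 2.91, and the adjusted p was 1.77e-06 in limma. The difference was -7.33 points at 0 h and from -9.97 to -7.69 points at 2 to 18 h, and it was -2.39 points at 24 h.

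The other members lower in Ikaros under the naming rule lay further from genes. The Tcf7 cluster lay 31.1 kb from the gene of TCF-1, a transcription factor of T-cell development, and had means of 89.6% ± 2.78 in Control and 85.4% ± 3.09 in Ikaros (adjusted p = 0.000868, limma). The Dnajb12 cluster, 32.0 kb from a co-chaperone gene, fell from 93.5% ± 5.14 to 85.04% ± 9.64 (adjusted p = 0.00616, limma). Its lowest Ikaros value, 54.6%, was that of 0 h replicate 3, and its highest, 97.0%, lay within the Control range. The Shank2 cluster, 23.6 kb from the gene of a postsynaptic scaffold, differed by -3.17 points, and a cluster 97.2 kb from Grhl2, an epithelial transcription factor, by -1.73 points. Without replicate 3 the Tcf7, Dnajb12, Shank2 and Grhl2 clusters were not called. The Dnajb12, Shank2 and Grhl2 clusters were also not called with the libraries' shares of empty and extreme values as covariates. Of the 10 called members lower in Ikaros, 4 were masked over more than 50%, as were 32.3% of all members, which makes 1.93% of those against a background of 1.13%.

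Of the members higher in Ikaros, the Pde4a cluster had the smallest p. It lies 1.36 kb from a start of the gene of a cAMP phosphodiesterase (chromosome 9, 21164251 to 21164349, 26 positions, all complete). In Control the lowest value was 79.0%, the median 82.1% and the highest 86.1%, and in Ikaros these were 84.7%, 86.4% and 90.3%. The groups overlapped in a narrow band, with 16 of 18 Control values below the lowest Ikaros value. The means were 82.3% ± 2.01 and 86.9% ± 1.91, a log2 difference in M-values of 0.52 ± 0.08 (SE) with an adjusted p of 2.53e-05 in limma. The difference ran from 4.39 to 6.21 points at 5 of the time points and was 1.38 points at 18 h.

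The largest rise was in a cluster 11.4 kb from Npas4, a transcription factor gene induced by activity in neurons, which had means of 88.8% ± 5.30 in Control and 95.6% ± 3.37 in Ikaros (adjusted p = 0.00143, limma). The Nkx3-2 cluster, 1.94 kb from a homeobox gene of skeletal development, rose by 5.96 points (adjusted p = 0.000869, limma), but only 4 of its 25 positions were complete. With the values present at every listed position it was no longer called. A cluster 8.59 kb from Rnf19b, a ubiquitin ligase gene, rose by 4.87 points, the Sema6b cluster, near a semaphorin gene, by 3.71 points and a cluster 6.12 kb from 1700067P10Rik by 3.20 points. The Npas4, Rnf19b and 1700067P10Rik clusters lost their calls without replicate 1, and the Nkx3-2 and Sema6b clusters without replicate 3. With the libraries' shares of empty and extreme values as covariates the Npas4 and Sema6b clusters were not called, nor was Sema6b on levels. Of the 21 called members higher in Ikaros, 20 were masked at most 50%, as were 67.7% of all members, which makes 4.61% of those against a background of 3.71%.

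**Figure D5:**
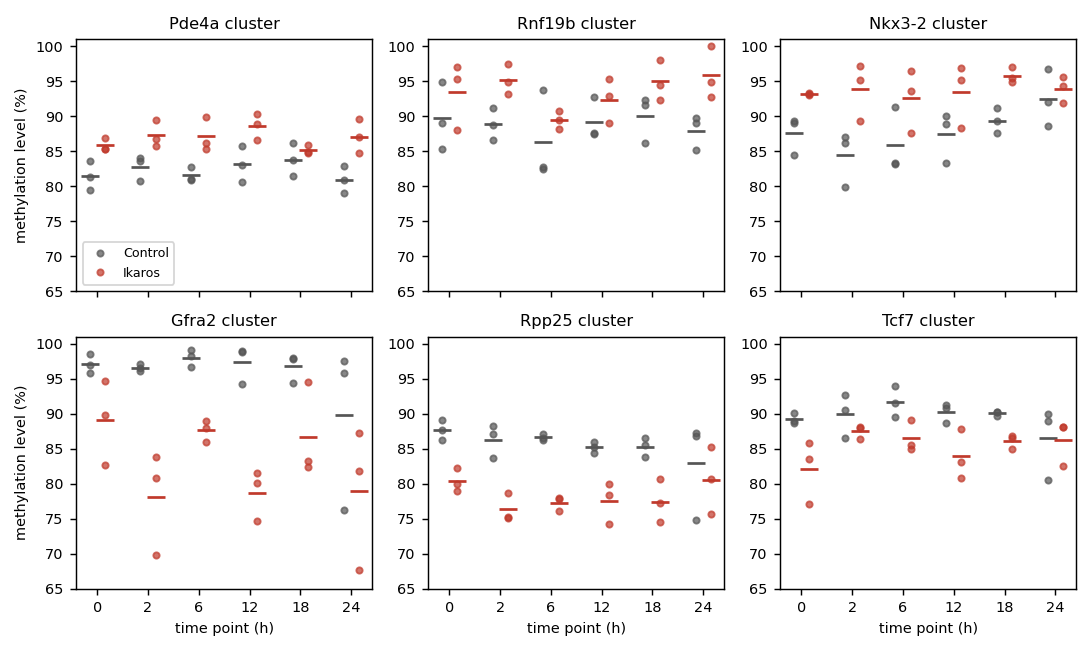
Methylation level (%) by time point (h, evenly spaced) in the 3 called members with the smallest p higher in Ikaros (top) and lower in Ikaros (bottom), Control in grey and Ikaros in red. Points are single libraries and short lines are means of 3. At 24 h 1 Control library lies among the Ikaros values in the Gfra2 cluster (76.3%) and below them in the Rpp25 cluster (74.8%).

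Control 24 h replicate 2 stood apart at the called members. Its level was nearer to the Ikaros mean than to the Control mean in 22 of the 31, whereas the other 17 Control libraries had from 4 to 13 such members and the Ikaros libraries from 19 to 29. It held the lowest Control value in the Gfra2, Rpp25 and Tcf7 clusters (80.6% in the last) and the highest in the Nkx3-2, Sema6b, Npas4 and 1700067P10Rik clusters (96.7%, 87.5%, 97.8% and 96.6%), which is the side of the Ikaros values in all 7. In the Pde4a cluster it held the lowest Control value (79.0%), the side away from Ikaros. Without it 30 members were called, 27 of them among the 31, and the differences became larger in these 7 clusters, for example -13.9 points in the Gfra2 cluster and -8.06 points in the Rpp25 cluster. What sets this library apart was not tested.

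Among the 31 called members the difference had the sign of the overall difference at all 6 time points in 23 and at 5 of them in the other 8, and at 0 h in 27. The call used these same samples, so the counts describe it and do not test it. A fit on the samples of 2 to 24 h alone called 31 members (4.84%), 23 of them among the 31, against 4.64% of all clusters. In the 0 h samples, which that fit did not use, 22 of these 31 had the same sign of difference and 9 the opposite sign.

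The time course asked whether the members change after induction, and few changes were detected. In the Ikaros series a moderated F test over the 6 time points called 0 of the 641 members, as it called 0% of all clusters, and 47 members (7.33%) had an unadjusted p under 0.05 against 5.22% of all clusters. The smallest adjusted p among the members was 0.496 (limma). For a linear slope over hours in Ikaros, 0 members were called (0% of all clusters), and 66 (10.3%) had an unadjusted p under 0.05 against 8.48% of all clusters. Of the 66, 54 (8.42% of the members) had a positive slope, against 6.99% of all clusters, and 12 (1.87%) a negative one, against 1.49%. The share of values at exactly 100% was high in all 3 Ikaros libraries of 24 h, with 19.6%, 33.0% and 17.0% at the members' positions against a series median of 9.88%, and its part in the slopes was not tested. In Control, 0 members were called for a slope (0.00598% of all clusters), and 42 (6.55%) had an unadjusted p under 0.05, against 5.38%. A course over time that differed between the series was called in 0 members (0% of all clusters), with 49 (7.64%) at an unadjusted p under 0.05 against 5.12%.

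The single call over time came from Control. It was the Unc5c cluster, 86.2 kb from a netrin receptor gene (chromosome 3, 141378744 to 141379034, 25 positions of which 10 were complete), with an adjusted p of 0.0342 in limma, against 0.012% of all clusters called and with 44 members (6.86%) at an unadjusted p under 0.05 against 4.83%. The Control values were 83.5%, 88.4% and 94.8% at 0 h, 100%, 98.0% and 100% at 2 h and 86.9%, 89.3% and 84.0% at 6 h. At 24 h they were 89.3%, 80.2% and 84.7%. The 3 libraries of 2 h were high and the other time points overlapped one another. In Ikaros the 2 h values were 89.8%, 86.5% and 87.7%, so no such rise was seen there, but the difference in course was not called (adjusted p = 0.729, limma). The whole cluster is repeat-masked, and its window had 5408 matches in the genome. The call was lost in 9 of the 18 fits that left out 1 Control library and when levels replaced M-values.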

How the data were processed

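DNA methylation was measured by RRBS in 36 samples of the B3 line. Per the study's methods and the submitters' processing notes, reads were trimmed, aligned to mm10 with Bismark 0.10.1 and smoothed within CpG clusters (BiSeq, bandwidth 80 bp). What the authors deposited is, per position, a smoothed level (a fraction, 0 to 1) and its M-value on a log2 scale, made after limiting levels to 0.01 to 0.99. The deposited tables give no coverage, so the number of reads behind a level is unknown and precision is described by the spread between samples only. Levels are printed in percent.

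All 36 columns were assigned from the labels. Cluster means over complete positions were compared with limma 3.58.1 in R 4.3.3 (time point as factor for the series; moderated F tests, slopes and interaction terms for time), fitted on all 16734 clusters, checked first on simulated data. Replicate numbers stand for batches in the labels (number 1 is batch 1, number 3 batch 4, number 2 batch 2 at 0 h and batch 3 later), and the correlations of deviations between same-numbered samples were -0.0442 to 0.0219 over 18 pairs. Fits with this pairing as a block are given below.

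Genes and starts came from GENCODE M21, and sequence and repeat masking from the GRCm38 RefSeq FASTA. Windows were aligned with BLAST+ 2.17.0. Python 3.11.15, pandas 2.3.3 and networkx 3.6.1 were used.

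Members, gene lists and tests were chosen with earlier results of these data known. Named are the 6 called members with the smallest p in each direction, the 3 with the largest difference in each, up to 4 called over time, those nearest the threshold, with most positions, with largest and smallest SD and with the lowest Ikaros mean, and members within 50 kb of 57 genes of B-cell biology. The links between members, the dips, the nearest-gene counts and the family sequences were chosen after their values were seen.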

Additional observations from a re-analysis of the deposited data

How the results depend on the processing

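The number of called members between the series, 31, was 37 on levels (all clusters called, 906 against 810; 25 of the 31 shared), 31 with a replicate block (paired numbers; 820; 29 shared), 32 with batch as a block (822; 29 shared) and 28 with trend and robust variances (747). It was 39 (901) without Control 0 h replicate 1 and Ikaros 24 h replicate 2, the libraries with most empty and with most extreme values. With a threshold of 90% it was 20 of 524 members (3.82%, against 4.84% of all clusters). With the libraries' shares of empty and extreme values as covariates it was 10 (335). Leaving out a replicate number gave 10 to 21, with the lowest without replicate 3 (10; 368 of all clusters) and then without replicate 1 (19; 399), where fewer samples entered. Leaving out single libraries gave 25 to 37, in fits that called 714 to 863 of all clusters. The Gfra2, Rpp25 and Pde4a clusters passed in every other fit run (with a threshold of 90% Rpp25 and Pde4a are no members, nor is Rpp25 when chosen on Ikaros), and the other 9 named clusters lost their call without 1 or more replicate numbers, with the values present, on levels or with the covariates, and none in a fit without a single library. The Unc5c call over time in Control was lost on levels, with the values present, without any of the replicate numbers, with a threshold of 90% (it is then no member) and with the covariates, each leaving 0 calls. It remained with the replicate block (1 call) and was lost in 9 of 18 single-library fits (without 0 h replicate 3, 2 h replicate 1 or 3, 6 h replicate 1, 2 or 3, 18 h replicate 1, 24 h replicate 2 or 3), so the range was 0 to 1. For a different course over time, 1 member was called without replicate 1 and without Ikaros 12 h replicate 1 (a cluster near Cbfb) and 1 without Ikaros 24 h replicate 3 (near Eml4), so the range was 0 to 1; the replicate block changed no call over time. The number of members was 478 over 5 kb from every start, 670 with a threshold of 70% and 858 with the values present, of which 665 had a value in every sample and could be tested. The median difference over members stayed between 0.00953 and 0.141 points, with 0.0317 without Control 24 h replicate 2. No result changed its direction. The reads behind each level are not in the tables used, so no limit from counting is given.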

Other observations

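The nearest protein-coding start belonged to a gene of a homeobox, Pax, Fox, Sox, Tbx or related transcription factor family, by its symbol, in 108 of 641 members (16.8%), in 107 of the 434 masked at most 50% (24.7%) and in 1 of the 207 masked over more than 50% (0.483%). Among the unmethylated intergenic clusters it was 11 of 170 (6.47%), among the methylated intronic clusters 55 of 384 (14.3%), and over all autosomal clusters 4.76%. The list of families was drawn up after the neighbours were seen and no test was made. Among single genes, 7 were nearest to 4 or more members. They were Pax2, a factor of kidney, eye and ear development (7 members, 5.33 to 81.1 kb away, Ikaros means from 93.9% to 98.1%), Uncx, a homeobox gene of the somites (6, from 88.0% to 97.9%), Ywhaq, a 14-3-3 protein gene (5, from 90.9% to 98.1%), Barx1, a homeobox gene (4, from 89.3% to 96.1%), Ebf3, a relative of the B-cell factor gene Ebf1 (4, from 85.4% to 98.2%), Foxd1, a forkhead gene of kidney stroma (4, from 97.1% to 97.9%), and Tbx5, a T-box gene of heart and forelimb (4, from 81.7% to 96.5%). Of these 34 members, 1 near Pax2 (2.94%, against 4.84% of all clusters) was called between the series, with 92.4% in Control and 94.2% in Ikaros (adjusted p = 0.0162, limma).

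None of the 641 members lay within 50 kb of a start of the 57 genes of B-cell biology and cell growth in the list. Such neighbours were rare throughout, with 151 of 16391 autosomal clusters (0.921%) and 3 of 384 methylated intronic clusters (0.781%). The 5 intergenic clusters within that distance were all unmethylated: a pair near Pax5, with Control means of 0.384% and 1.30%, and 1 each within 50 kb of Lef1 (0.577%), Cdkn1b (0.356%) and Ikzf3 (1.31%), the last with its nearest start at Grb7. Pax5 and Lef1 encode factors of early B-cell development and Ikzf3 a relative of Ikaros.

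The letters GGGAA, the core of the sequence that Ikaros binds, occurred on either strand in the 300-bp windows of 409 members (63.8%), 122 of the unmethylated intergenic clusters (71.8%) and 59.5% of all autosomal clusters. They were present in 34 of the 34 windows of family 2 and in 24 of the 104 of family 1. The MspI site CCGG was present in 640 members (99.8%). CACGTG occurred in 36 members (5.62%), against 7.72% of all autosomal clusters, and TGACGTCA in 6 (0.936%), against 1.42%. These are matches of letters, not sites of binding.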
